A study of Rattus norvegicus with 4 samples.

Results

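The genes described here are the 135 Ensembl gene IDs whose expression was higher with UNC9994 than with its vehicle DMSO at both 12 h and 24 h in MMQ cells. They were chosen from the deposited FPKM values (sequenced fragments per kilobase of a gene's model, adjusted to the depth of the library). Being per length, these values allow genes to be ranked, but a very short model can reach a high FPKM on few reads. Of the 33832 IDs in the series, 11620 had an Ensembl number and reached at least 2 FPKM in at least 1 library. For each of these IDs, 0.5 was added to every FPKM and the log2 ratio of UNC9994 to DMSO was taken at each time. An ID is a member if both ratios were at least 0.8, which corresponds to 1.74-fold on that scale. The ratio therefore chose the members, and a rise below means a positive ratio in these libraries, given as a description and not as a test.

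MMQ cells are an established, prolactin-secreting line from a rat pituitary tumour. The cells received UNC9994 at 15 µM or DMSO for 12 h or 24 h, in medium with fetal bovine and horse serum, and each of the 4 combinations is 1 library with no replicate. Culture and batch are not labelled, and a difference in either between the drug and vehicle library of a pair cannot be told apart from the treatment. No p-value is given, because the ratios chose the members and a single library per combination leaves no spread between replicates. The D2 receptor is the dopamine receptor of the prolactin cells of the pituitary. It couples to inhibitory G proteins, lowers cyclic AMP and restrains the synthesis and release of prolactin, and it also recruits beta-arrestins, which can link the receptor to kinases such as Akt. UNC9994 was developed as a D2 receptor ligand that favours the beta-arrestin branch.

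The files do not pair gene IDs with names. In the reference table of 47357 rat genes the Ensembl column was filled for 0 genes, and 0 IDs matched a name. The 17 lists of 383 genes drawn up for this tissue and drug, among them lactotroph markers and markers of other cell types, are therefore not analysed here, the labelled cell type was not checked against its markers, and no promoter sequence could be assigned to a member. Members are described by their values, and 2 of them by ID.

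A log2 ratio of at least 0.8 was reached by 415 of the 11620 IDs at 12 h (3.57%) and by 353 at 24 h (3.04%). The members are the 135 IDs in both lists (1.16% of all). They made up 32.5% of the 12 h list and 38.2% of the 24 h list, and the 12 h and 24 h ratios share no library. Of the 280 IDs past the ratio at 12 h only, 168 (60%) were above 0 at 24 h, as were 48.4% of all IDs. Of these 168, 69 had a 24 h ratio of 0.5 to 0.8, and 41 of the 280 had a ratio of -0.8 or below. Of the 218 IDs past it at 24 h only, 136 (62.4%) were above 0 at 12 h, as were 46.8% of all IDs, and 27 were at -0.8 or below. The median ratio at the other time was 0.21 for the IDs past it at 12 h only and 0.24 for those past it at 24 h only. The opposite group, lower by the same ratio at both times, numbered 271 IDs (2.33%).

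**Figure D1:**
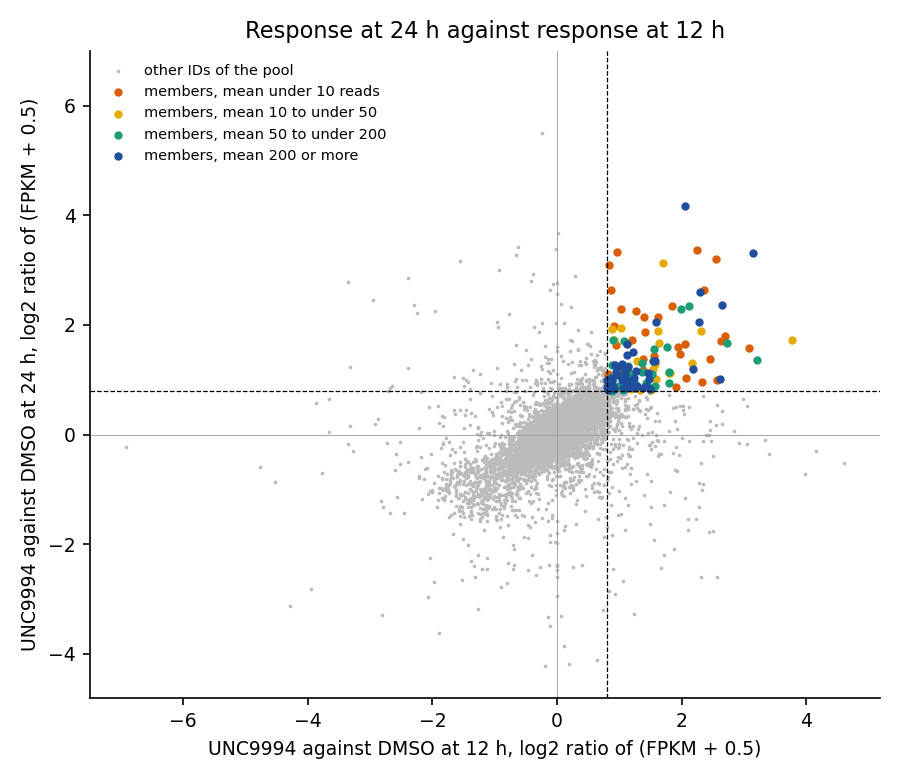
Each point is an ID of at least 2 FPKM in some library, with its log2 ratio of UNC9994 to DMSO at 12 h (x axis) and at 24 h (y axis), both of FPKM + 0.5. Dashed lines mark 0.8, the 135 members lie above and to the right of them, and their colour gives the mean number of recovered reads over the 4 libraries.

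Most members were expressed at a low level. Their median of the mean FPKM over the 4 libraries was 3.29, against 14.6 for all 11620 IDs. A mean under 2 FPKM was found for 49 members (36.3%, against 5.03% of all IDs), 54 lay between 2 and 10 FPKM, 24 between 10 and 50 FPKM, and 8 had at least 50 FPKM (5.93%, against 15.6%). An ID with a mean under 2 FPKM passed the minimum through its higher libraries, and the highest value of every member was in UNC9994. The excess of members at low means is therefore partly set by the way they were chosen. The median member stood at 1.40 FPKM in DMSO at 12 h and 1.73 FPKM in DMSO at 24 h, and at 4.82 FPKM in UNC9994 at 12 h and 4.65 FPKM at 24 h. For members at the low end, the added 0.5 makes the ratio smaller than that of the listed FPKM alone. This does not show a larger rise, because the ratio chose these members and many of them rest on few reads.

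A few abundant members carried most of the signal. The 5 most abundant held between 50.95% and 53.6% of the summed FPKM of the members in every library. The sum was 1198 FPKM in DMSO and 3362 FPKM in UNC9994 at 12 h, which is 2.81-fold, and 1151 FPKM in DMSO and 2878 FPKM in UNC9994 at 24 h, which is 2.50-fold. Of all recovered reads, the members took 0.173% in the 12 h vehicle library (0.171 to 0.175, Wilson interval at 95%) and 0.482% in the 12 h drug library (0.480 to 0.485). At 24 h they took 0.163% in DMSO (0.161 to 0.165) and 0.378% in UNC9994 (0.376 to 0.381). These and all intervals below cover counting error only and say nothing of the spread between cultures.

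**Figure D2:**
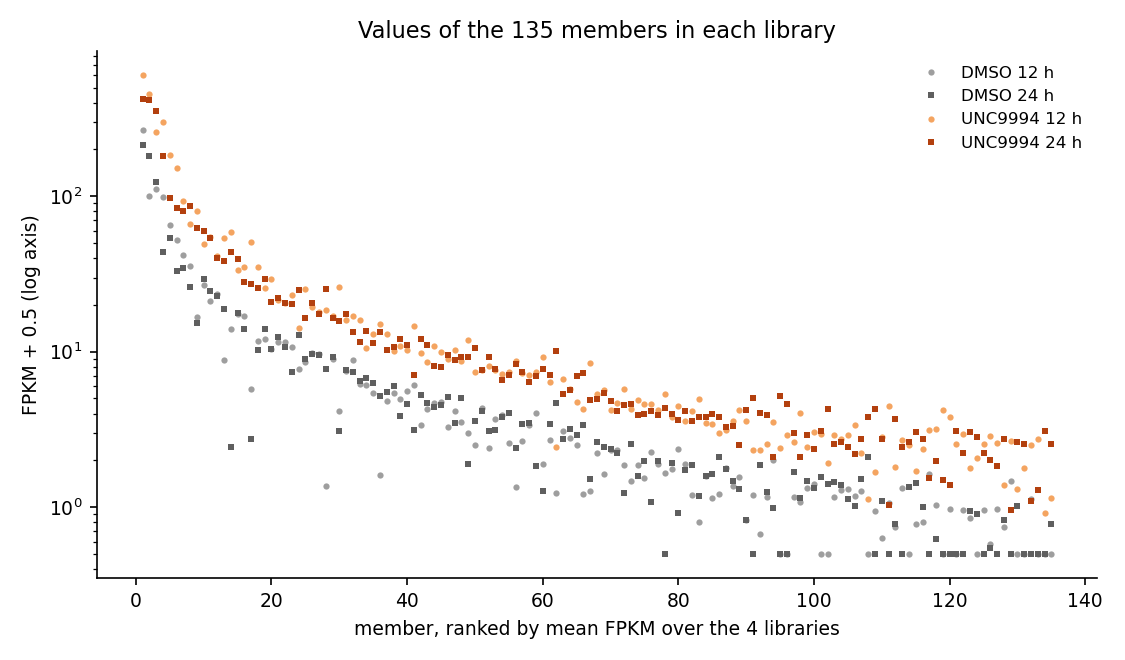
FPKM + 0.5 (log axis) of each of the 135 members in each of the 4 libraries, with the members ranked by their mean FPKM on the x axis. Grey symbols are DMSO and orange symbols UNC9994, circles 12 h and squares 24 h, and the lowest grey symbols, at 0.5, are libraries in which the member was listed at 0.

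The most abundant member had 268 FPKM in DMSO and 605 FPKM in UNC9994 at 12 h, and 213 and 421 FPKM at 24 h. It was 2.25-fold higher at 12 h (95% counting interval 2.20 to 2.30) and 1.98-fold higher at 24 h (1.93 to 2.03), and its level was lower at 24 h in both treatments. The next member had 99.5 FPKM in DMSO and 456 FPKM in UNC9994 at 12 h, and 182 and 416 FPKM at 24 h. The 12 h fold was 4.58 (4.37 to 4.80) and the 24 h fold 2.28 (2.19 to 2.38), and the smaller fold at 24 h went with a higher vehicle value rather than with a much lower drug value. A member with a gene model of only 72 bases was the third by abundance and had 110 and 257 FPKM at 12 h and 123 and 352 FPKM at 24 h, a fold of 2.33 (1.93 to 2.81) and then of 2.86 (2.39 to 3.44).

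The fourth had 98.8 and 298 FPKM at 12 h and 43.2 and 181 FPKM at 24 h. It was lower at 24 h in both treatments, by a larger factor in DMSO, with a 12 h fold of 3.02 (2.90 to 3.15) and a 24 h fold of 4.19 (3.94 to 4.46). The fifth, with a gene model of 153 bases, had 65.0 and 184 FPKM at 12 h and 53.7 and 96.4 FPKM at 24 h, a fold of 2.83 (2.41 to 3.33) and then of 1.79 (1.47 to 2.20). In all 5, both UNC9994 values lay above both DMSO values, as they did in 27.3% of all IDs. The ratios that chose the members make this likely from the start.

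The number of reads behind the values divided the members. Whole read numbers were recovered from the FPKM, as described under the processing. A mean of under 10 reads over the 4 libraries was found for 38 members (28.1%, against 3.53% of all IDs), 20 had 10 to under 50, 32 had 50 to under 200 and 45 had 200 or more. Read against the IDs of the same depth, members were 9.27% of the IDs with under 10 reads, 3.21% of those with 10 to under 50, 2.02% of those with 50 to under 200 and 0.5% of those with 200 or more. The share of IDs past both ratios was thus lower at each higher step of depth. The choice itself favours this, because the minimum of 2 FPKM uses the highest value, which for every member was in UNC9994. In the group that was lower at both times, 27 of 271 (9.96%) had a mean of under 10 reads.

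Many members had a short recovered gene model. The length and the reads of an ID were recovered together, as the shortest length that gives whole reads, so a factor common to its read numbers lowers both. The median recovered gene model length was 839 bases for members and 2081 bases for all IDs. Models under 200 bases numbered 41 among members (30.4%) and 683 among all IDs (5.88%), and 6% of these short models were members, against 0.859% of longer ones. Of the 41 short members, 33 had a mean of under 10 reads and 4 had 50 or more. A single read is worth more FPKM in a short model, so the minimum of 2 FPKM admits short models on few reads.

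**Figure D3:**
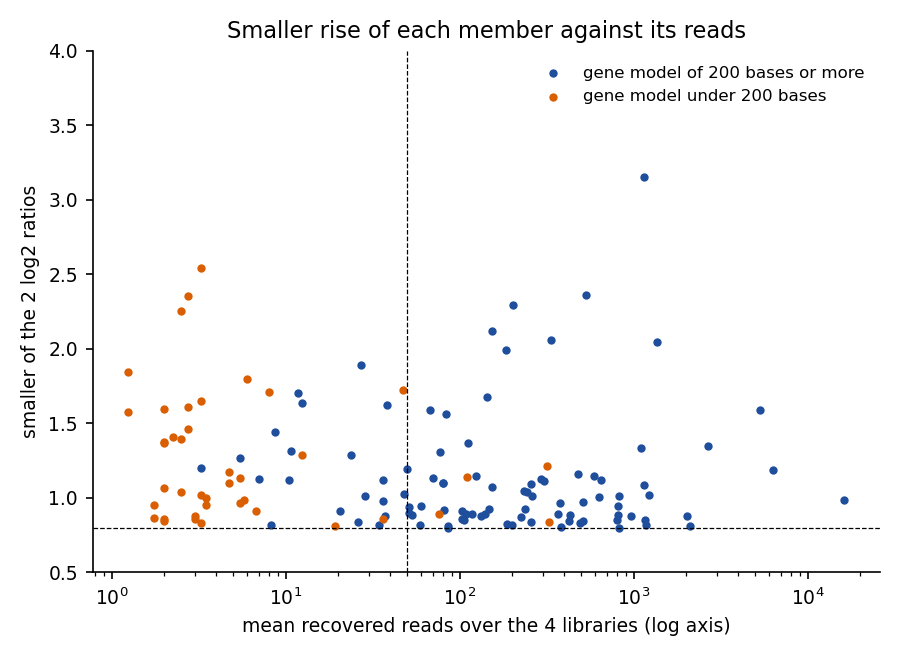
Smaller of the 12 h and 24 h log2 ratios (y axis) of each member against its mean number of recovered reads over the 4 libraries (x axis, log scale), with gene models under 200 bases in orange. The horizontal dashed line is the ratio of 0.8 that chose the members, and the vertical one a mean of 50 reads, which 77 members reached.

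Many rises of the thinly read members could not be told from counting error. The 95% counting interval of the fold lay above 1 at both times for 97 of the 135 members. It reached 1 at 1 or both times for 38, at both for 25, and each of these 38 had a mean of at most 19.25 reads. For all 77 members with a mean of at least 50 reads it lay above 1 at both times. The interval was not computed for the other IDs, so no share over all IDs can be set beside these counts. Ratios of at least 0.8 in the same libraries chose these members, which makes an interval above 1 likely at that depth. In 129 members both UNC9994 values lay above both DMSO values, as they did in 27.3% of all IDs, and none of the other 6 had a mean of 50 reads. The ratios that chose the members make such separation likely from the start.

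The largest rises came from members of very different depth. ENSRNOG00000009734 had the highest value of the smaller ratio with 0.5 added. With 0.1 added, its smaller ratio of 3.24 was below that of ENSRNOG00000053274, which was 4.65. ENSRNOG00000009734 had 5.23 FPKM in DMSO and 50.4 FPKM in UNC9994 at 12 h, and 2.25 and 26.8 FPKM at 24 h. These values rest on 259 and 2833 reads at 12 h and on 99 and 1423 reads at 24 h. Its level was lower at 24 h in both treatments by similar factors, with a log2 change of -1.06 in DMSO and -0.90 in UNC9994, so that the rise was kept (log2 ratio 3.15 at 12 h and 3.31 at 24 h).

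ENSRNOG00000053274 came second by the same measure. It was listed at 0 in both DMSO libraries and had 2.42 FPKM in UNC9994 at 12 h and 4.09 FPKM at 24 h, which are 5 and 8 reads over a model of 91 bases. Against a floor of 3 reads in the vehicle library it was at least 1.47-fold higher with UNC9994 after 12 h, and after 24 h at least 2.20-fold higher. These bounds leave out the counting error of its own 5 and 8 reads. The lower limit of its counting interval, which holds that error too, was 0.807-fold at 12 h and 1.41-fold at 24 h, so that the rise at 12 h was not detectable at this depth. In all, 7 members were listed at 0 in both DMSO libraries, with 1 to 8 reads in each UNC9994 library and models of 47 to 117 bases, and 19 were listed at 0 in exactly 1 DMSO library.

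Among members with a mean of at least 50 reads, 5 others had log2 ratios above 2 at both times. The first had 3.67 and 25.5 FPKM at 12 h and 2.57 and 15.3 FPKM at 24 h, a fold of 6.96 (5.88 to 8.29) and of 5.95 (4.80 to 7.46). Another stood at 0.330 and 3.10 FPKM at 12 h and at 0.327 and 3.69 FPKM at 24 h, a fold of 9.41 (6.23 to 14.8) and of 11.3 (7.31 to 18.3), with vehicle values that hardly differed between the times. The most abundant of the 5 had 16.1 and 80.4 FPKM at 12 h and 14.7 and 62.3 FPKM at 24 h, with a 12 h counting interval of the fold of 4.53 to 5.52 and a fold at 24 h of 4.24 (3.80 to 4.75). In 4 of the 5 the counting intervals of the folds at the earlier and the later time overlapped. In the other 1, with 13.5 and 58.0 FPKM at 12 h and 1.92 and 43.1 FPKM at 24 h, they did not.

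Over all 135 members the median log2 ratio was 1.27 at 12 h, with a highest value of 3.77, and 1.16 at 24 h, with a highest value of 4.17. A ratio of at least 1, which is 2-fold on this scale, was reached by 103 members at 12 h and 92 at 24 h. It was reached by 2.3% and 1.8% of all IDs. At both times it was reached by 75 members, 0.645% of all 11620 IDs. A ratio of at least 2 was reached by 24 members at 12 h, 20 at 24 h and 9 at both, and 6 of the 9 had a mean of at least 50 reads. Any ID past 1 or 2 at both times is a member, so counts at both times are also those over all IDs. The median was 1.39 at 12 h and 1.61 at 24 h in members with under 10 reads, and 1.56 and 1.30 with 10 to under 50. It was 1.20 and 1.07 with 50 to under 200, and 1.14 and 1.04 with 200 or more. Among the 77 members with a mean of at least 50 reads the medians were 1.15 and 1.04, and 36 of them reached a ratio of 1 at both times.

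The edge of the group was continuous. The smaller ratio of each of the 3 members just inside rounded to 0.80, and that of the 3 IDs just outside was 0.79, 0.79 and 0.78. The last member inside had 5.60 and 10.1 FPKM at 12 h and 6.30 and 13.0 FPKM at 24 h. The nearest ID outside had 1.84 and 4.25 FPKM at 12 h and 2.07 and 3.96 FPKM at 24 h, and missed membership at 24 h only.

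The rule required the ratio at both times, so a rise at 24 h was fixed by it, and what can be described is how far the sizes of the rise at each time lay apart. The 24 h ratio was lower than the 12 h ratio in 78 members (57.8%) and higher in 57, and the median difference was -0.07 on the log2 scale. It differed by less than 0.25 in 55 members (40.7%). The rise was smaller by 0.25 or more at 24 h in 46 members, 11 of them by 1 or more, and larger by 0.25 or more in 34, 9 of them by 1 or more. Counting intervals of the 12 h and 24 h folds overlapped in 120 members. The 24 h interval lay wholly below the 12 h interval in 12 members and wholly above it in 3. Intervals are wide where reads are few, so an overlap there does not show that the rise was kept. A mean of under 10 reads was found for 38 members. The overlap was not counted for the other IDs.

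The spread went with depth. The median size of the difference between the ratios was 0.53 in members with under 10 reads, 0.55 with 10 to under 50, 0.23 with 50 to under 200 and 0.23 with 200 or more. Among the 77 members with a mean of at least 50 reads, the ratios differed by less than 0.25 in 43 (55.8%). In this subset the rise was smaller by 0.25 or more at 24 h in 22 and larger in 12.

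The change with time within each treatment shows which libraries a changed rise went with. The rule set each drug library against the vehicle library of its time, so these changes use the same 4 values in another arrangement. In members with a mean of at least 50 reads, the median log2 change from 12 h to 24 h was -0.005 in DMSO. In UNC9994 it was -0.06. All 10586 IDs with at least that mean had medians of -0.02 in DMSO and 0.01 in UNC9994. Those IDs were not matched in depth, with a median of 792.5 mean reads against 257 for these members. The SD across IDs was 0.53 in DMSO and 0.39 in UNC9994 for these members, and 0.28 and 0.30 for those 10586 IDs. A change with time of at least 2-fold in either direction was seen in 25 of the 135 members in DMSO and in 18 in UNC9994, against 2.65% and 2.69% of all IDs. Of these members, 14 of the 25 and 17 of the 18 had a mean of under 10 reads. That depth was held by 28.1% of members and 3.53% of all IDs, so the shares are not matched in depth. Of the 77 members with a mean of at least 50 reads, 5 (6.49%) changed so in DMSO and 1 (1.3%) in UNC9994. The shares were 0.803% and 0.869% of the 10586 IDs, which had more reads in the median.

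**Figure D4:**
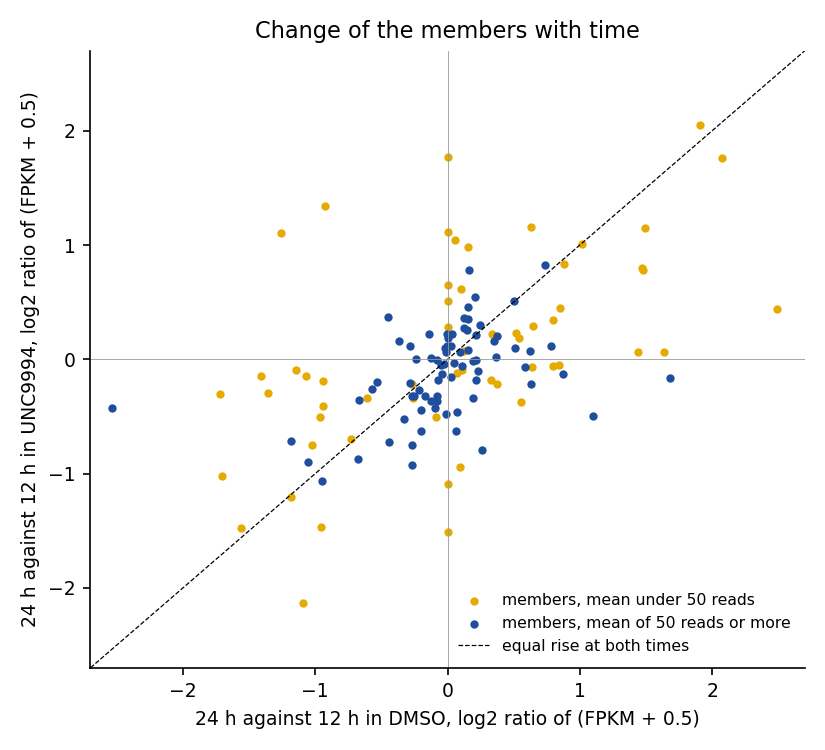
Log2 ratio of 24 h to 12 h in DMSO (x axis) and in UNC9994 (y axis), of FPKM + 0.5, for each of the 135 members. Points on the dashed line had the same rise at both times, points below it a smaller rise at 24 h, and the 77 members with a mean of at least 50 reads (blue) lie closer to the line in the median than the others (yellow).

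In the 22 well-read members whose rise was smaller by 0.25 or more at 24 h, the drug value was lower at 24 h in 18. The vehicle value was higher in 15. Of all 10586 IDs with such a mean, the vehicle value was higher at 24 h in 4780 and the drug value in 5531. The pick itself favours these directions, because the difference between the ratios is the change in UNC9994 minus that in DMSO. The median log2 change of the 22 members was -0.35 in UNC9994 and 0.22 in DMSO. The member with the largest such loss had 1.12 and 14.5 FPKM at 12 h and 4.67 and 12.8 FPKM at 24 h, a 12 h fold of 13.0 (7.55 to 24.1) and a 24 h fold of 2.75 (2.01 to 3.83). Its drug values were close to each other and its vehicle value was higher at 24 h. Another had 8.31 and 53.5 FPKM at 12 h and 18.4 and 37.7 FPKM at 24 h, where the vehicle value was higher and the drug value lower at 24 h, and its fold was 6.44 (5.73 to 7.25) and then 2.05 (1.87 to 2.25). The next had 0.775 and 7.96 FPKM at 12 h and 1.02 and 4.38 FPKM at 24 h, mostly through a lower drug value.

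In the 12 well-read members whose rise was larger by 0.25 or more at 24 h, the median log2 change was -0.41 in DMSO and 0.14 in UNC9994. Here too the pick itself favours these directions. The largest gain belonged to the member with non-overlapping intervals above, with 13.5 and 58.0 FPKM at 12 h and 1.92 and 43.1 FPKM at 24 h. Its drug value was lower at 24 h, and its vehicle value rested on 18 reads at 24 h against 143 at 12 h, which gave a 12 h fold of 4.29 (3.58 to 5.17) and a 24 h fold of 22.5 (14.1 to 38.2). A member with 0.345 and 1.28 FPKM at 12 h and 0.443 and 2.56 FPKM at 24 h had a higher drug value at 24 h instead, with a fold of 3.71 (2.65 to 5.30) and then 5.79 (4.28 to 7.97). Since each value is 1 library, a vehicle library that differed by culture cannot be told apart from a change with time. When each drug library was set against the vehicle library of the other time, 92 of the 135 members were past the ratio of 0.8 at both times. Of all 11620 IDs, 135 (1.16%) were past it in that arrangement. The swap uses the same 4 values that chose the members, so many were likely to pass, and it is not independent support.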

How the data were processed

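Polyadenylated RNA was sequenced from 4 libraries, per the labels' protocols. The deposited values are FPKM, per the file headers, although the series table's name speaks of raw counts. The submitters' processing notes name CASAVA, TopHat2 version 2.0.7, Bowtie2, HTSeq and Rnor_6.0, with no roles, and the annotation and strand handling were not given in the sources used here. Of 35042 rows, 1209 exact repeats and 1 truncated ID were removed.

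FPKM is reads divided by gene model length and a library divisor. The divisors were found from the whole-number ratios of low values. The shortest length of 40 to 40000 bases that made the reads of an ID whole, within 0.001 reads plus 1e-08 of the value, was then taken. Whole reads came out for all 16009 IDs with a value above 0 in each library, in totals of 17433867 to 21728374 per library, and a factor common to all 4 read numbers of an ID would go unseen. The recovery was tested on simulated data, where 96.3% of the IDs of 2 FPKM or more gave back their exact reads. This held for 80.1% of the 156 simulated IDs with a recovered length under 200 bases. It held for 71.7% of the 60 with a recovered mean under 10 reads. The read numbers and intervals of short or thinly read members are therefore less certain. Folds with 95% exact binomial intervals come from these reads, and log2 ratios from FPKM + 0.5.

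The members and lists were chosen with earlier results of these data known. Without names, the rule for named genes left the 2 members with the largest smaller ratio, and others are given by rank, without ID. The tiers of reads and length and the band of 0.25 were set after the values were seen. No test was run. Python 3.11.15, numpy 2.4.6, pandas 2.3.3 and scipy 1.17.1 were used. The alternatives cover pseudocount, filter, scaling, ratio, ID type and vehicle library.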

Additional observations from a re-analysis of the deposited data

Results flagged for a closer look

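The series also holds 949 IDs without an Ensembl number, which the choice of members left out. Of the 613 that reached 2 FPKM in some library, 25 (4.08%) were past the ratio of 0.8 at both times and 6 were lower by the same ratio at both. The 25 had a median of 2.16 FPKM, a median recovered length of 1964 bases and median log2 ratios of 1.15 at 12 h and 1.09 at 24 h, and 21 of them had a mean of at least 50 reads. They are given because they show a rise above the vehicle libraries outside the IDs that were described. What these loci are is not known here.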

How the results depend on the processing

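No paired analysis was possible because the labels give no replicate numbers and no test was run; each ratio already sets drug against vehicle of the same time. The results were the number of members (135), members with a mean of at least 10 FPKM (32), members with a log2 ratio of at least 1.5 at 12 h (50) and at 24 h (44), members as a share of the 12 h list (32.5%), and members that changed 2-fold with time in DMSO (25). Of 78 alternative values of these results, 56 differed by a factor of at most 1.5 (for the share, lay inside its 95% interval) and 22 did not. A pseudocount of 0.1 gave 78 at 12 h and 44 changed with time. A pseudocount of 1 gave 29 at 12 h, 23 at 24 h and 9 changed with time. A highest FPKM of at least 5 gave 69 members, 23 at 12 h, 17 at 24 h and 9 changed with time. No filter on low values gave 213 members and 25.9%. A threshold of 1 gave 75 members, 18 of at least 10 FPKM, 28.1% and 16 changed with time, and a threshold of 0.6 gave 269, 79 and 37.6%. A mean of at least 50 reads, chosen after seeing the data, gave 77 members, 21 at 12 h, 15 at 24 h and 5 changed with time. Fewer or more IDs pass by the construction of these settings. Scaling by summed FPKM gave 131 members (120 shared) and total-read scaling 148 (134 shared). Alternatives for the change with time were added after seeing the data. Of 50 alternative ratios of the 2 IDs printed, 0 reversed. This is no support, because ENSRNOG00000053274 was listed at 0 in both DMSO libraries and could not reverse in any setting. The large ratios of ENSRNOG00000009734 made a reversal unlikely from the start. ENSRNOG00000053274 had 2.54 at 12 h and 3.20 at 24 h, 4.65 and 5.39 with a pseudocount of 0.1 and 1.77 and 2.35 with 1, and its highest FPKM of 4.09 is under the filter of 5. With the vehicle library of the other time, ENSRNOG00000009734 had 4.21 at 12 h and 2.25 at 24 h. Reads limit the 38 members with a mean under 10.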

Other observations

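Of the 41 members with a gene model under 200 bases, 11 shared their recovered length with another of them. There were 4 such lengths, each held by up to 3 members. The 41 lengths are whole numbers between 40 and 192 bases, so some would be shared by coincidence. The number to expect was not computed, and sharing was not counted among the 683 models under 200 bases of all IDs. The count alone therefore says nothing of copies. Whether the 11 members are copies of each other was not tested.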
